A study of Arabidopsis thaliana with 18 samples.

Results

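The REM (REPRODUCTIVE MERISTEM) genes encode plant proteins that bind DNA through the B3 domain. Described here are REM22 (AT3G17010), on chromosome 3, and 9 REM genes that lie in tandem on chromosome 4 from AT4G31610 to AT4G31690. These 10 genes, of 32548 genes in the expression table, were chosen by their measured values: AP2/B3-like genes had been seen to be higher in the sant-null mutant than in wild type. The comparison of sant-null with wild type is therefore a description: the calls in the authors' deposited tables are quoted as the values that chose the genes, and nothing is read from them. Tests are kept to the comparisons that did not choose the genes. All of those still share the sant-null libraries or the wild-type libraries with the comparison that did.

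B3 proteins fall into several families: the auxin response factors, the RAV and NGATHA proteins, the LEC2/ABI3/VAL regulators of the seed programme, and the REM proteins, the most divergent of them. REM genes are best known from flowers, where many are transcribed in the inflorescence meristem and the young floral organs, and VRN1, a REM relative that keeps the flowering repressor FLC silent after cold, is the best understood. Within the chromosome 4 cluster, REM34 (AT4G31610, listed as REM1) and REM35 (AT4G31615) are known to be needed for male and female gametophyte development, and REM36 (AT4G31620) lies beside them. The individual roles of the other members are less clear, and none is stated here.

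The samples were 7-day-old seedlings of Arabidopsis thaliana grown on 1/2 MS medium in a 16 h light, 8 h dark cycle. There were 6 groups of 3 libraries: Col-0 (wild type), sant-null (labelled as a quadruple mutant, in a study of SANT1/2/3/4) and hda6 (labelled as an EMS line), each harvested either from 22 °C or after 1 h at 37 °C. SANT proteins carry a domain named after chromatin and transcription regulators, and HDA6 is a histone deacetylase of the RPD3 type. As no label ties replicates to their own plating, p-values reflect library-to-library spread alone, part or all of which may be technical. The alleles behind sant-null are not given in the labels, and no second line of either mutant is among the samples.

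The expression table holds 1 value per group, the authors' mean FPKM (fragments per kilobase of gene and per M fragments, with M for mega). The means could be resolved into whole fragments per library for all 10 genes, and those recovered fragments are used below, always listed within a group from the deepest library to the shallowest. Library totals, as recovered, were 38.1 to 53.6 M. HDA6 itself was at 6.83 FPKM in Col-0 and 7.59 FPKM in hda6 at 22 °C, so its transcript level does not check the label of the hda6 line. Marker genes matched the labelled tissue: all 5 shoot markers were above 1 FPKM in every group, all 4 root markers were above 1 FPKM in every group at 22 °C, and of 12 floral meristem and flower organ markers 1 reached 1 FPKM in each group. Seedlings are whole plantlets, so fewer cells of a type and less RNA per cell cannot be told apart.

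The cluster members lie at positions 15317499 to 15345180 of chromosome 4 in RefSeq's copy of TAIR10.1, a span of 27.7 kb, with 4 genes on the plus strand and 5 on the minus strand. Their coding sequences are related to each other and not to REM22 by this measure. All 36 pairs within the cluster aligned over at least 50% of the shorter sequence, with identities from 62.4% to 88.4% and a median of 66.4%, while 0 of the 9 pairs with REM22 did. The closest pairs were AT4G31680 with AT4G31690 (88.4% identity) and AT4G31640 with AT4G31650 (87.6% identity). Even so, few exonic 50-base words occur elsewhere in the genome: 3.25% for AT4G31690, 2.94% for AT4G31680, under 1% for the other members that have any, and none for REM22, REM34, AT4G31630 and AT4G31660. No source used here says how reads that map to several places were counted. REM34 and REM35 face each other tail to tail and overlap by 21 bases, and the strand setting of the counting is not given either, so fragments in that overlap cannot be assigned to a gene.

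Stretches of 250 bases before the annotated start are printed for the 4 members that the results turn on. These are REM22, with the largest difference, and AT4G31650, the most abundant cluster member. The others are AT4G31660, which had no fragment in Col-0, and REM35, which rose on heat in sant-null. The stretches come from RefSeq TAIR10.1 and were chosen after the values were seen. The REM35 window is not all intergenic: 83 bases separate REM35 from REM36, and the bases further upstream lie inside REM36. Capitals mark matches, on either strand, to any of the motifs named after the sequences.
REM22, chr3:5800022-5800271, plus strand: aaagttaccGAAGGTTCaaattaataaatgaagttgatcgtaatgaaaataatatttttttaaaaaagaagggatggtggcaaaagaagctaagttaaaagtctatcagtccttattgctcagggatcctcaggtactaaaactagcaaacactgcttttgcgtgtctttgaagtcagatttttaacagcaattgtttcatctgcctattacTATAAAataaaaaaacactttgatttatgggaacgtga
REM35, chr4:15322312-15322561, minus strand: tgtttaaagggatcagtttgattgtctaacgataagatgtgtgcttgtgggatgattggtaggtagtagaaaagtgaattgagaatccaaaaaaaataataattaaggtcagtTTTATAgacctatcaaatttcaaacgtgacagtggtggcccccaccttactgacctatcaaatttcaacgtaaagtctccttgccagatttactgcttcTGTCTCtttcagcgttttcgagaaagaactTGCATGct
AT4G31650, chr4:15330743-15330992, plus strand: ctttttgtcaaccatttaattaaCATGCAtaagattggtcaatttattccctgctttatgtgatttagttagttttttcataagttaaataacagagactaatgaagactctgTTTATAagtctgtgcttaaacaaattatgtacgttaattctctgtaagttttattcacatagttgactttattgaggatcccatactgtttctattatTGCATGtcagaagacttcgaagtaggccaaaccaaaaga
AT4G31660, chr4:15333763-15334012, plus strand: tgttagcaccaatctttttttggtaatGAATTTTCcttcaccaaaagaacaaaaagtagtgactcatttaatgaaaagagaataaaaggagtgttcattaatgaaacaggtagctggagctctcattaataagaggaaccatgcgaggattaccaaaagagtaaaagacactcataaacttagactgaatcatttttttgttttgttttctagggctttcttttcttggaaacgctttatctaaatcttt
The motifs searched were the RY motif CATGCA, which B3 proteins of the LEC2/ABI3/VAL family bind, the auxin response core TGTCTC, the paired heat shock element unit GAANNTTC, the G-box CACGTG, the telo-box AAACCCTA, the GAGA repeat GAGAGA, the TATA sequence TATAAA and the CArG box, and no 2 of the marked matches in these windows overlap. The RY motif was in the windows of 2 of 10 members (REM35, and AT4G31650 with 2 matches), beside 8.43% of 27438 windows of protein-coding genes. GAANNTTC was in 2 of 10 (REM22 and AT4G31660), beside 9.55% of all windows. TATAAA was in 5 of 10, beside 47.4%, and TGTCTC in 1 (REM35), beside 10.9%. The TATAAA match of REM35, 137 to 132 bases before its start, lies inside REM36. A match says only that these letters are present.

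REM22 had almost no transcript in Col-0 and was the most abundant of the 10 genes in sant-null at 22 °C. The Col-0 libraries at 22 °C held 2, 0 and 0 fragments, and those at 37 °C held none. The sant-null libraries held 326, 273 and 297 fragments at 22 °C, and 146, 133 and 123 at 37 °C. The hda6 libraries were in between, with 34, 39 and 29 fragments at 22 °C and 10, 14 and 16 at 37 °C. In FPKM, the deposited means at 22 and 37 °C were 0.00989 and 0 for Col-0, 6.04 and 2.34 for sant-null, and 0.646 and 0.252 for hda6. From the highest group to the lowest, each step separated the libraries completely, except that the ranges of the Col-0 groups overlapped. As a description, the rate in sant-null was 539 times that in Col-0 at 22 °C, with a 95% exact counting interval of 149 to 4455 because Col-0 rests on 2 fragments. At 37 °C it was at least 132-fold higher, against a floor of 3 fragments over the Col-0 group. Such intervals and floors cover counting error only.

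**Figure D1:**
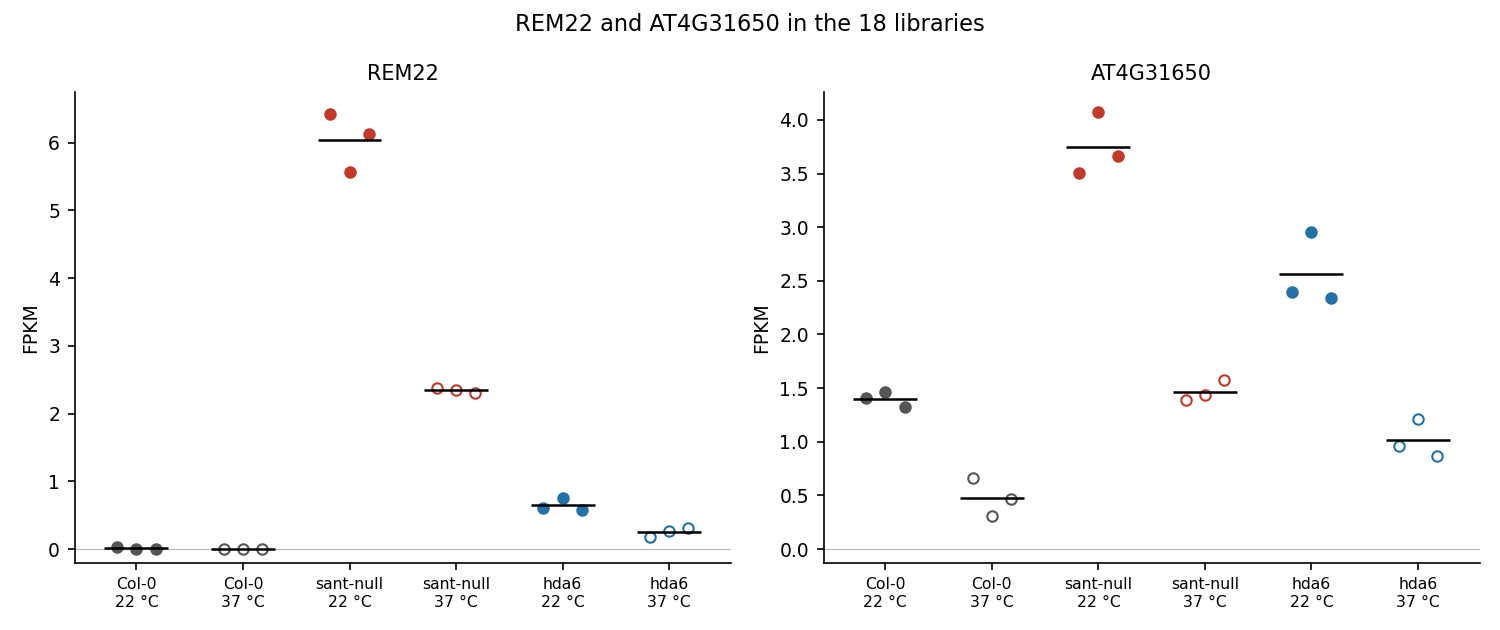
FPKM of REM22 (left) and AT4G31650 (right) in each of the 3 recovered libraries of the 6 groups (points, filled for 22 °C and open for 37 °C), with the authors' group mean as a line. REM22 is near 0 in Col-0 and at 5.56 to 6.43 FPKM in sant-null at 22 °C, whereas AT4G31650 is present in every group and lower at 37 °C than at 22 °C in each genotype on this scale.

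AT4G31650 was the most abundant cluster member in every group, and together with REM35 it was found in all 18 libraries. It held 156, 137 and 117 fragments in Col-0 at 22 °C and 73, 27 and 37 at 37 °C. In sant-null it held 292, 328 and 291 at 22 °C and 140, 134 and 138 at 37 °C. In hda6 it held 223, 250 and 191 at 22 °C and 88, 107 and 72 at 37 °C. The deposited means at 22 °C were 1.40 FPKM in Col-0, 2.56 in hda6 and 3.75 in sant-null, and the libraries of the 3 genotypes did not overlap. At 37 °C they were 0.478, 1.01 and 1.47 FPKM, again without overlap. AT4G31650 carried between 61.1% (sant-null, 37 °C) and 84.7% (hda6, 22 °C) of all fragments of the cluster members. In the authors' deposited table the sant-null log2 fold change was 1.33 ± 0.14 (SE) at 22 °C and 1.56 ± 0.26 (SE) at 37 °C, modest beside that of REM22, at 8.99 ± 1.03 (SE) at 22 °C.

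The other 8 cluster members were scarce: the highest group mean was 0.790 FPKM, for REM35 in sant-null at 37 °C, and the next gene, AT4G31660, reached 0.218 FPKM. Of the 60 combinations of a member and a group, 15 had no fragment, 19 had 1 to 10 over the 3 libraries, and 26 had more. AT4G31660 had no fragment in any Col-0 library, and 11, 6 and 13 in sant-null at 22 °C, at least 12.0-fold higher. Outside that group it appeared as 3 fragments in 1 library of sant-null at 37 °C and 3 in 1 library of hda6 at 22 °C. AT4G31680 held 4, 3 and 1 fragments in Col-0 at 22 °C, 8, 14 and 11 in sant-null and 0, 0 and 2 in hda6. REM34, needed for gametophyte development, held 0, 1 and 1 fragments in Col-0, 9, 4 and 11 in sant-null and 10, 3 and 2 in hda6 at 22 °C. For these 3 genes the sant-null libraries at 22 °C lay above all Col-0 libraries at 22 °C, as they did for 5 of 10 members in all (27.0% of all genes).

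AT4G31640, the near relative of AT4G31650, had no fragment in Col-0, and 9, 5 and 0 in sant-null at 22 °C, so 1 of those libraries also had none. In hda6 at 22 °C it held 2, 2 and 1. AT4G31630 gave 2 fragments in all 18 libraries, 1 in each of a pair of sant-null libraries at 22 °C. REM36 held 10, 5 and 13 fragments in Col-0, 16, 12 and 9 in sant-null and 22, 12 and 20 in hda6 at 22 °C, with overlapping ranges for all 3 genotypes. AT4G31690 held 0, 0 and 3 fragments in Col-0 and 1, 0 and 4 in sant-null at 22 °C, and none in hda6. In the order of their means, each of its 6 groups overlapped the next. The Col-0 libraries at 37 °C, with 4, 2 and 2 fragments, all lay above those of hda6 at 22 °C.

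**Figure D2:**
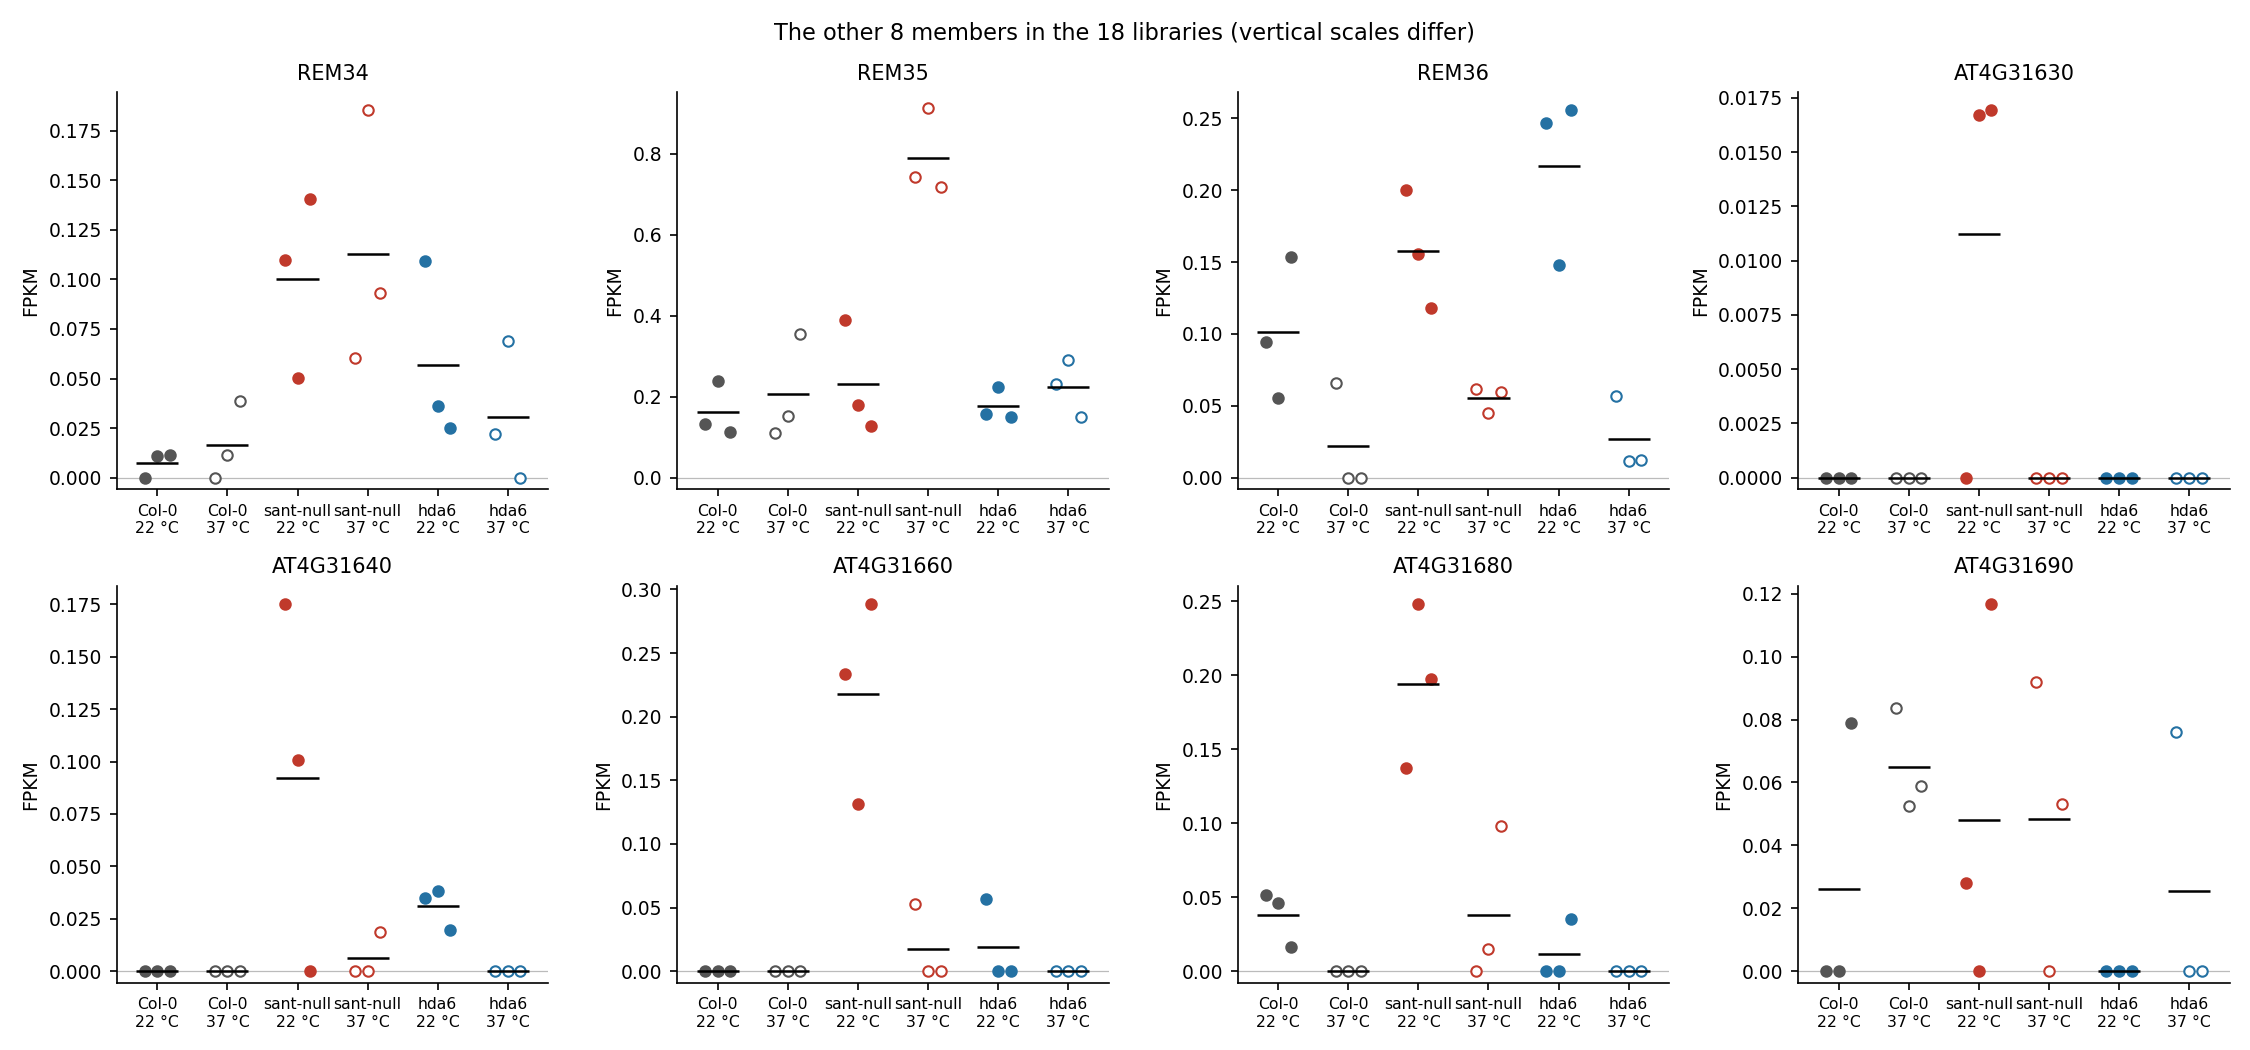
FPKM of the other 8 members in each of the 3 recovered libraries of the 6 groups (points, filled for 22 °C and open for 37 °C), with the authors' group mean as a line and a vertical scale for each gene. AT4G31660 and AT4G31680 are highest in sant-null at 22 °C, and REM35 is highest in sant-null at 37 °C, at 0.717 to 0.912 FPKM.

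Counted over the members, sant-null at 22 °C held 2003 fragments and Col-0 495, hda6 lying between them with 886. The authors' deposited table called 5 of the 9 members with an adjusted p higher in sant-null than in Col-0 at 22 °C (REM22, REM34, AT4G31650, AT4G31660 and AT4G31680). Of all genes tested, 8.82% were called higher there, and since this comparison chose the genes, nothing is read from the difference. At 37 °C it called 3 of 7 higher (REM22, REM35 and AT4G31650), where 4.72% of all genes were called higher. Seed storage genes also moved with sant-null at 22 °C: the FPKM of 10 such genes summed to 2.39 there and to 0.148 to 0.301 in the other 5 groups, and 3 of the 5 tested were called higher than in Col-0. Most of that sum was CRA1, at 1.67 FPKM. Against Col-0 at 22 °C, 7 of the 10 had a higher FPKM, 1 a lower one and 2 an equal one. The 12 floral markers summed to 3.02 FPKM in sant-null and 3.66 FPKM in Col-0 at 22 °C, most of it SEP3, which was lower in sant-null (2.17 against 3.16 FPKM). Of the 12, 7 had a higher FPKM in sant-null, 4 a lower one and 1, AP1, was at 0 in both groups. AP3 was at 0.181 FPKM in sant-null and 0.0243 FPKM in Col-0, and PI at 0.280 and 0.119 FPKM. The part of either list in the REM values was not tested.

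REM22 and AT4G31650 were also higher in hda6 than in Col-0, and these were the members that passed the test in that comparison. The authors' deposited table gave REM22 a log2 fold change of 5.81 ± 1.10 (SE, adjusted p = 6.54e-06, DESeq2) at 22 °C. At 37 °C, where Col-0 had no fragment, REM22 was at least 14.1-fold higher (adjusted p = 9.09e-05, DESeq2, in the authors' deposited table). AT4G31650 had log2 fold changes in the authors' deposited table of 0.82 ± 0.16 (SE, adjusted p = 7.68e-06, DESeq2) at 22 °C and 1.07 ± 0.29 (SE, adjusted p = 0.00248, DESeq2) at 37 °C. So 2 of 7 members with an adjusted p rose at 22 °C, where 6.10% of all genes were called higher, and 2 of 5 at 37 °C, where 9.06% were. At either temperature 0 were called lower, also at an unadjusted p under 0.05 and by limma, where 4.50% and 9.41% of all genes were in the authors' deposited table. REM34, at 2.96 ± 1.46 (SE, adjusted p = 0.216, DESeq2) at 22 °C in the authors' deposited table, did not pass, although its hda6 libraries all lay above those of Col-0. The libraries of 4 of the 9 members with any fragment lay wholly above Col-0 at 22 °C, beside 19.4% of all genes. Root markers moved in the same comparison: 3 of 4 were called higher in hda6 at 22 °C and 1 of 4 at 37 °C in the authors' deposited table, and their FPKM summed to 32.8 in hda6 and 25.2 in Col-0 at 22 °C, and to 6.99 and 4.90 at 37 °C. The part of the root markers in the REM values was not tested. These comparisons use the same Col-0 libraries as those of sant-null.

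Whether sant-null exceeded hda6 depended on the test. The members were chosen for high values in sant-null, so an excess over hda6 is partly built in at either temperature. The calls below are not independent of that choice. Set side by side at 22 °C, the sant-null and hda6 libraries held 326, 273 and 297 against 34, 39 and 29 fragments of REM22, and the rate was 9.36 times as high (95% exact counting interval 7.62 to 11.6). At 37 °C the ratio was 9.37 (6.76 to 13.3). Combining the deposited tables, with an error that is an upper bound because both mutants share Col-0, gave a log2 difference of 3.18 ± 1.51 (SE, adjusted p = 0.425, Wald test, 95% interval 0.22 to 6.14) for REM22 at 22 °C. By this test 0 of 7 members were called at 22 °C (2.83% of all genes, 3 members at an unadjusted p under 0.05) and 0 of 5 at 37 °C (3.79% of all genes, 1 member at an unadjusted p under 0.05). A member with no fragment in the Col-0 group could not be tested this way. AT4G31660 at 22 °C and REM22 at 37 °C, both called by limma below, therefore had no such test. limma on the recovered fragments, an alternative added after the data were seen, which does not pass through Col-0, called 4 members higher at 22 °C (6.50% of all genes) and 3 higher at 37 °C (7.78%).

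At 22 °C those 4 were REM22, with a log2 difference of 3.16 ± 0.21 (SE, adjusted p = 2.68e-14, limma), AT4G31680 with 3.77 ± 0.75 (SE, adjusted p = 0.000305, limma), AT4G31660 with 3.40 ± 0.70 (SE, adjusted p = 0.000488, limma) and AT4G31650 with 0.50 ± 0.11 (SE, adjusted p = 0.0013, limma). The libraries of these 4 genes did not overlap between the mutants, beside 19.6% of all genes that lay wholly higher in sant-null. At 37 °C they were REM22 at 3.14 ± 0.31 (SE, adjusted p = 5.5e-10, limma), REM35 at 1.74 ± 0.34 (SE, adjusted p = 0.000258, limma) and REM34 at 2.09 ± 0.74 (SE, adjusted p = 0.0475, limma). The call of REM34 was lost in 4 of the 6 fits that left out a library. AT4G31650 at 37 °C differed by 0.46 ± 0.17 (SE, adjusted p = 0.0681, limma) and was not called, although its libraries did not overlap, as for 3 of 9 members in all (19.1% of all genes).

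Heat was read on both scales that the files offer, because they disagree. Relative to the deposited log2 fold changes, ratios of FPKM after heat were lower for the median gene by 1.01 (Col-0), 1.05 (sant-null) and 1.06 (hda6) on the log2 scale, so a gene with no change on one scale falls on the other. REM35 was the member that rose in sant-null on both. Its Col-0 libraries held 13, 20 and 9 fragments at 22 °C and 11, 12 and 25 at 37 °C. Its sant-null libraries held 29, 13 and 9 fragments at 22 °C and 67, 76 and 56 at 37 °C, and its hda6 libraries 13, 17 and 11 and then 19, 23 and 11. In FPKM, sant-null went from 0.390, 0.180 and 0.127 to 0.741, 0.912 and 0.717, without overlap, and every other pair of neighbouring groups overlapped.

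The log2 change of REM35 on heat in sant-null was 2.83 ± 0.67 (SE, adjusted p = 8.76e-05, Wald test on combined deposited tables) on the deposited scale and 1.78 (adjusted p = 0.0125) on the FPKM scale, where 4.68% of all genes were called higher. On the deposited scale it was the 1 member of 5 called, higher, beside 26.1% of all genes called higher there, and its libraries lay wholly above, beside 5.90% of all genes. In Col-0, REM35 was again the 1 member called, of 6, in the authors' deposited table, at 1.33 ± 0.57 (SE, adjusted p = 0.0336, DESeq2), where 30.1% of all genes were called higher. That call ended on the FPKM scale, at 0.32 (adjusted p = 0.600), and its libraries overlapped. In hda6 the change was 1.40 ± 0.77 (SE, adjusted p = 0.128, Wald test) and 0.34 on the FPKM scale. Of 5 members 0 were called on heat in hda6, where 47.4% of all genes were called, with 0 at an unadjusted p under 0.05, while limma called REM35 higher and REM36 lower (66.4% of all genes called).

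**Figure D3:**
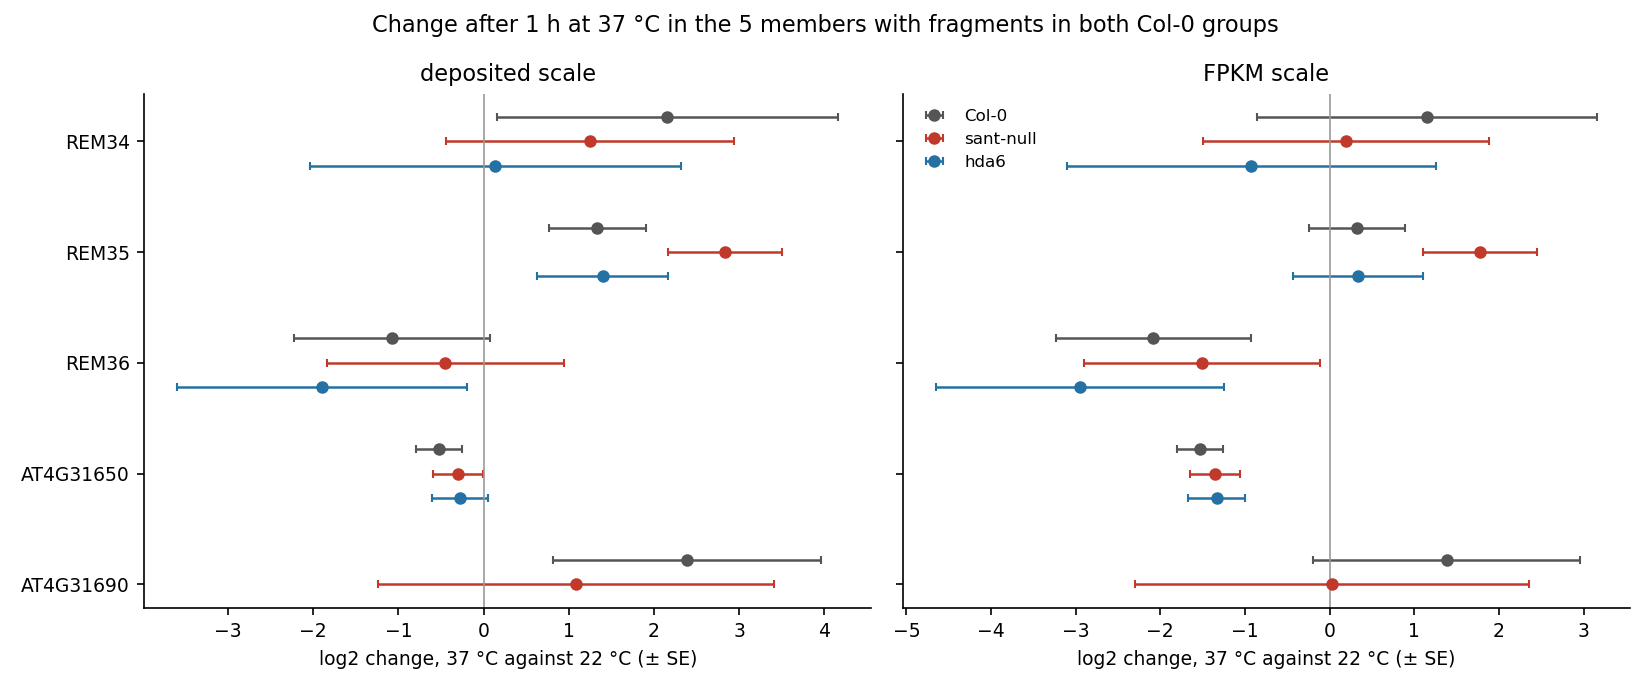
Log2 change on heat (37 °C against 22 °C) by genotype for REM34, REM35, REM36, AT4G31650 and AT4G31690, on the deposited scale and on the FPKM scale, with bars of 1 SE. AT4G31690 is not drawn for hda6, where it had no fragment at 22 °C. REM35 in sant-null is above 0 on both scales (2.83 and 1.78), and AT4G31650 lies further below 0 on the FPKM scale in each genotype.

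For REM35 the heat response in sant-null exceeded that in Col-0 by 1.50 ± 0.67 on the log2 scale (SE, adjusted p = 0.520, Wald test, 95% interval 0.19 to 2.81), which was not called. limma gave 1.74 ± 0.58 (SE, adjusted p = 0.144). For hda6 the difference was 0.06 ± 0.77 (SE). Of 5 members, 0 were called for either mutant, beside 0.835% of all genes for sant-null and 4.66% for hda6. At an unadjusted p under 0.05 there was 1 for sant-null, REM35, and 0 for hda6, and limma called 0 for both.

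AT4G31650 fell on the FPKM scale in all 3 genotypes and was not called on the deposited scale in any. Its log2 changes were -0.52 ± 0.27 (SE, adjusted p = 0.0831, DESeq2) in Col-0 in the authors' deposited table, -0.30 ± 0.29 (SE, adjusted p = 0.436, Wald test) in sant-null and -0.27 ± 0.33 (SE, adjusted p = 0.547, Wald test) in hda6. On the FPKM scale they were -1.53 (adjusted p = 2.94e-08), -1.35 (adjusted p = 7.93e-06) and -1.33 (adjusted p = 0.000125, Wald test), where 72.5%, 65.8% and 63.8% of all genes were called lower. The rate of REM22 per M fragments after heat was 0.388 times that before in sant-null and 0.387 times in hda6, with 95% exact counting intervals of 0.344 to 0.437 and 0.262 to 0.563. Scaled by size factors, as the deposited tables are, the values were smaller: limma gave REM22 log2 changes of -0.30 ± 0.12 (SE, adjusted p = 0.0266, limma) in sant-null, where 35.9% of all genes were called lower, and -0.27 ± 0.36 (SE, adjusted p = 0.518, limma) in hda6, which was not called. The combined deposited tables give REM22 no value, because Col-0 had no fragment at 37 °C. Libraries lay wholly lower after heat for 5 of 10 members in sant-null (74.7% of all genes) and 4 of 9 in hda6 (73.1%). In sant-null they included AT4G31660, with 30 fragments before heat and 3 after, and AT4G31680, with 33 and 7. limma called both lower there, at -2.50 ± 0.70 (SE, adjusted p = 0.00195, limma) and -1.92 ± 0.67 (SE, adjusted p = 0.0119, limma). Of 6 fits that left out a library, 6 kept the call of AT4G31660, 5 that of AT4G31680 and 1 that of REM22.

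**Figure D4:**
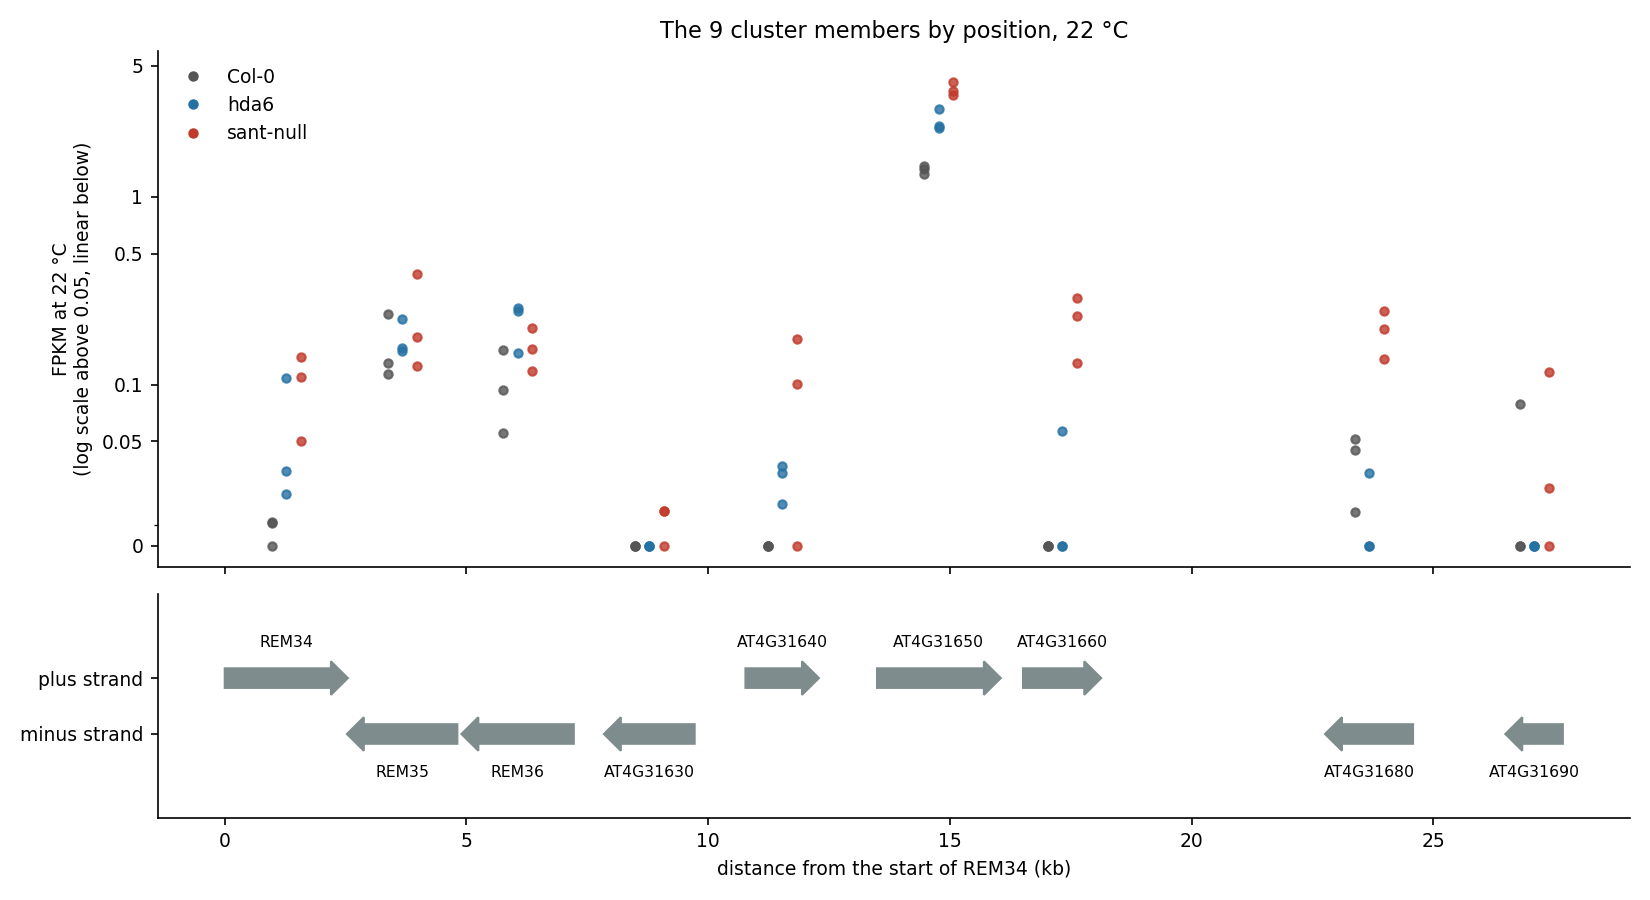
FPKM at 22 °C of each cluster gene in every recovered library of the 3 genotypes (upper panel, logarithmic above 0.05 and linear below), over the genes drawn as arrows by their distance in kb from the start of REM34 (lower panel). AT4G31650 stands above the other members in all 3 genotypes. UBP18 and AT4G31685, which lie within the cluster but are not members, are not drawn.

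Within the 27.7 kb, the members were interrupted by UBP18 (AT4G31670), a ubiquitin-specific protease, and by AT4G31685, another B3 gene that the rule did not include. UBP18 was at 2.98 FPKM in Col-0, 3.25 FPKM in sant-null and 2.91 FPKM in hda6 at 22 °C, and its sant-null log2 fold change in the authors' deposited table was 0.04 ± 0.12 (SE). AT4G31685 stayed at or under 0.105 FPKM in all 6 groups. Of the 10 genes that flank the cluster, 8 were tested in sant-null at 22 °C in the authors' deposited table, and 1 was called, lower. Of the 10 that flank REM22, 6 were tested, and 1 was called, higher. In hda6 at 22 °C the deposited DESeq2 test called 0 of 8 genes flanking the cluster (1 at an unadjusted p under 0.05, 0 by limma) and 0 of 6 flanking REM22 (2 at an unadjusted p under 0.05, 2 by limma). In hda6 at 37 °C it called 1 higher and 1 lower of 7 flanking the cluster, and 2 higher and 1 lower of 5 flanking REM22. Of all genes, 8.82% were called higher and 8.98% lower in sant-null at 22 °C. The shares in hda6 were 6.10% and 4.50% at 22 °C, and 9.06% and 9.41% at 37 °C. Whether the flanking genes differ from the members was not tested.

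Other B3 genes of the annotation, 77 in all, were also called higher in sant-null, in the comparison that chose the members. Of the 40 tested in the authors' deposited table, 21 were called higher at 22 °C, where 8.82% of all genes were. At 37 °C 12 of 39 were called higher and 1, ABS2, lower, beside 4.72% and 4.05% of all genes. Over the 34 with transcript in both groups at 22 °C the median log2 fold change was 1.02, beside 0.01 over all genes. In hda6 7 of 41 were called higher and 0 lower at 22 °C (12 and 2 at an unadjusted p under 0.05, 10 and 2 by limma). Of all genes there, 6.10% were called higher and 4.50% lower, and by limma 7.59% and 8.53%. The median over 35 of these B3 genes was 0.38, beside 0.00 over all genes. AT3G53310, one of the 5 most abundant, was at 0.440 FPKM in Col-0, 4.63 FPKM in sant-null and 3.29 FPKM in hda6 at 22 °C. Its log2 fold change in the authors' deposited table was 2.84 ± 0.22 (SE, adjusted p = 1.64e-36, DESeq2) in hda6. VRN1 was at 5.85, 6.07 and 5.70 FPKM in those groups.

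Counts for the other B3 families in sant-null at 22 °C stand beside 8.82% of all genes called higher and 8.98% lower. Of 15 auxin response factors the deposited DESeq2 test called 0 higher and 2 lower (1 and 3 at an unadjusted p under 0.05, 0 and 3 by limma). Of 8 RAV and NGATHA genes it called 0 higher and 3 lower (RAV1, RAV2 and TEM1), with the same counts at an unadjusted p under 0.05 and by limma. Of 5 tested LEC2/ABI3/VAL genes 0 were called in either direction, also at an unadjusted p under 0.05 and by limma. RAV2, known as TEM2, a repressor of flowering, was at 32.8 FPKM in Col-0 and 21.3 FPKM in sant-null. A difference between the families was not tested.

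Over the 6 group means, the genes whose log2 FPKM followed REM22 most closely were AT1G03106 (Pearson's r = 0.999), DL1D (0.994), PSD2 (0.993), AT3G42850 (0.992) and MES10 (0.990), among 11628 genes. At 22 °C AT1G03106 was at 0.0533 FPKM in Col-0, 2.59 FPKM in sant-null and 0.471 FPKM in hda6. AT4G31650 had r = 0.771 with REM22 and ranked 236 of 11628 among the genes like REM22. From the side of AT4G31650, REM22 ranked 4424 of 11628. With AT4G31650 itself the closest were AT1G23850 (0.9996), AT2G30942 (0.999), AT3G47590 (0.997), PLC1 (0.996) and AT3G05190 (0.996). With 6 points that share libraries many genes come this close: 44 reached r of 0.95 with REM22 and 244 with AT4G31650.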

How the data were processed

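RNA-seq was run on 18 libraries of Arabidopsis seedlings, 3 in each of 6 groups. The submitters' processing notes name DESeq2 1.30.1, featureCounts 2.0.1, HISAT2 2.2.1, CASAVA and the TAIR10 build. No source used here gives their order or settings, nor the strand mode or the handling of multiply mapped reads. The authors deposited FPKM as 1 mean per group, and 5 comparison tables with log2 fold changes and standard errors, a Wald score, p-values and adjusted p-values, and the mean normalized signal per gene (the DESeq2 baseMean), per the file headers.

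Calls rest on the deposited adjusted p under 0.05. The 6 comparisons without a table were made from signed sums of deposited log2 fold changes, with squared errors of the mutant tables summed, an upper bound, and Benjamini-Hochberg adjustment over all genes with a value. A member with no fragment in a Col-0 group that the sum needs got no such test. One with no fragment in a mutant group was still tested, as AT4G31690 was with hda6 at 22 °C. Whole fragments per library were recovered from the FPKM means and the baseMean for 26035 of 26546 genes above 0 (98.1%), including all 10 members. Held-out genes matched the deposited baseMean in 99.9% to 100% of cases within a relative tolerance of 5e-08, and 99.5% to 99.6% of values were whole within 0.1. Recovered libraries are ordered by depth and carry no replicate number; whether totals (38.1 to 53.6 M) are reads or fragments is not given. limma 3.58.1 (R 4.3.3) on genes with at least 10 recovered fragments, an alternative chosen after the data were seen, used those values. Python 3.11.15, numpy 2.4.6, pandas 2.3.3 and scipy 1.17.1 did the rest, and the steps were tested on simulated data. Exact Poisson intervals (95%) and floors of 3 fragments over a group cover counting error only.

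The members and all gene lists were chosen with earlier results of these data known. All 10 members are named, with other genes only among the 5 highest of a list, where a count was 5 or fewer, as neighbours, or among the 5 most like a member. The sequences are RefSeq's, from TAIR10.1; the files hold no coordinates. Levels of SANT1 to SANT4 were not analysed here.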

Additional observations from a re-analysis of the deposited data

How the results depend on the processing

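No paired analysis was possible because the recovered libraries carry no replicate numbers and the deposited values are group means. Of the alternatives to the member counts, 75 left the count within 1.5 times and 20 moved it. The alternatives to single log2 values of called members were judged by different rules. On the FPKM scale a value counted as unchanged if its call was kept, however far the value moved. As a log2 ratio of FPKM means with 0.1 or 1 added, it counted as unchanged if it stayed within 1 SE. By these rules 17 were unchanged, 22 moved by at least 1 SE and 1 lost the call. None reversed the direction. For heat in Col-0, with 1 member called, an adjusted p under 0.01 gave 0 and adjustment over genes of at least 1 FPKM gave 0. There limma gave 4 (2 higher, REM35 and AT4G31690, and 2 lower, REM36 and AT4G31650), and limma scaled by library totals gave 3 (0 higher). On the FPKM scale the count was also 1, but AT4G31650, lower, in place of REM35. For sant-null at 22 °C, with 5 called, an adjusted p under 0.01 gave 3 and genes of at least 1 FPKM 2. For hda6 at 22 °C, with 2 called, a log2 change of at least 1 gave 1 and genes of at least 1 FPKM 1; at 37 °C the latter also gave 1 of 2. For heat in sant-null, with 1 called, the FPKM scale gave 2, genes of at least 1 FPKM 0, limma 4, and limma by totals 7. The 4 were REM35, higher, and REM22, AT4G31660 and AT4G31680, lower. For heat in hda6, with 0 called, the count was 1 on the FPKM scale, 2 by limma and 4 by totals. The limma counts are of 9 members tested. Of all genes, limma called 64.9%, 67.7% and 66.4% on heat in Col-0, sant-null and hda6, in either direction. By totals it called 82.3%, 85.8% and 83.9%. On the FPKM scale 72.5%, 65.8% and 63.8% of all genes were called lower. For sant-null against hda6, with 0 called, limma gave 4 at 22 °C and 3 at 37 °C, and by totals 4 at each. There it called 15.6% and 17.2% of all genes in either direction, and by totals 15% and 16.6%. The cause of these differences between settings was not tested.

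Leaving out each library in turn, limma called 1 to 5 members for heat in Col-0, 4 to 6 and 3 to 4 for sant-null at 22 and 37 °C, 2 to 2 for hda6 at both, 3 to 4 for heat in sant-null, 1 to 2 for heat in hda6, 0 to 0 for the interactions, and 4 to 4 and 2 to 4 for sant-null against hda6 at 22 and 37 °C. The call of REM35 on heat in Col-0 was lost without any of 3 libraries, 2 at 22 °C and 1 at 37 °C, with log2 changes of 0.78 to 1.58 over all such fits. Depth is 1 limit: 34 of 60 combinations of member and group hold 10 fragments or fewer.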
